A study of Rattus norvegicus with 19 samples.

Results

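Transcripts of 6 GABA-A receptor subunit genes, Gabra2, Gabra3, Gabra5, Gabrb1, Gabrb2 and Gabrg1, were followed in single T11 dorsal root ganglia of rats with intact and with cut neighbouring skin nerves. All probe sets whose gene symbol in the platform annotation was one of these were taken, which gave 7 probe sets, 2 for Gabrb2 and 1 for each other gene. They stand among 31042 probe sets and 14217 named genes on the array. Another 10 GABA-A and rho subunit genes with a probe set of 1 gene symbol serve as context.

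GABA-A receptors are chloride channels opened by the transmitter GABA, each built from a ring of subunits that usually combines alpha, beta and gamma types. Sensory neurons of the dorsal root ganglion keep a high internal chloride concentration through the cotransporter Slc12a2, so that GABA depolarises them, and receptors on their central endings take part in presynaptic inhibition of sensory input. The alpha subunit sets much of a receptor's affinity, location and drug response, the beta subunit contributes to the GABA-binding interface and to delivery to the surface, and the gamma subunit helps form the benzodiazepine site.

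All rats were adult female Sprague-Dawley rats, and each gave 1 ganglion and 1 Affymetrix expression array, with no pooling. The 5 naive rats had no operation. The 7 rats of day 7 and the 7 rats of day 14 after surgery had the dorsal and lateral cutaneous nerves of T9, T10, T12 and T13 transected on one side, which isolates the intact T11 skin territory and induces its fibres to sprout. The study presumed day 7 to stand for the initiation and day 14 for the maintenance of sprouting. With no sham group, surgery as such and the sprouting it induces cannot be told apart.

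Values are log2 expression levels, so a difference of 1 is a fold of 2. All 19 arrays carried the sensory neuron transcripts that define the tissue, at list means between 11.49 and 11.81 for 16 genes. The GABA-synthesising and vesicle-loading genes of spinal inhibitory neurons, Gad1, Gad2 and Slc32a1, were dim on the array, at naive means of 4.77, 4.62 and 4.47. Skeletal muscle genes stood high on a single array per group, namely naive replicate 1, day 7 replicate 7 and day 14 replicate 2. Array data have no sequencing depth, so precision depends on how many arrays there are: over all probe sets the standard error of a difference from naive had a median of 0.080.

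The sequence upstream of the annotated start is shown for Gabra5, the only member whose operated and naive arrays did not overlap, and for Gabrb2, whose brighter probe set had a lower mean at day 14 than in either other group. Both are from RefSeq on build GRCr8, 250 bases read 5′ to 3′ on the gene's own strand and ending at the base before the start, with each CG dinucleotide in capitals. The Gabra5 stretch is chr1:117516607-117516856 on the minus strand and that of Gabrb2 is chr10:27439543-27439792 on the plus strand.
Gabra5: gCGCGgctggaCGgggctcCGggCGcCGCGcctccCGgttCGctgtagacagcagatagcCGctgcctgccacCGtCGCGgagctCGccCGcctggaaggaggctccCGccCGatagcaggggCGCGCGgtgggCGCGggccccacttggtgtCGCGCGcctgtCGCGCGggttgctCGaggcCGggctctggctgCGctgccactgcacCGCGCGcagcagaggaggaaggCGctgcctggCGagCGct
Gabrb2: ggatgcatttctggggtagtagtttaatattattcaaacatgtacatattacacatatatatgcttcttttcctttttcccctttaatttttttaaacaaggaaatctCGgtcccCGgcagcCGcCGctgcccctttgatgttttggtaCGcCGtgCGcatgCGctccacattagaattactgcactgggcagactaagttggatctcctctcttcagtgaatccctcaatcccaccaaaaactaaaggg
The Gabra5 stretch held 37 CG dinucleotides and 76.4% G or C, and 2.02% and 2.74% of 27457 rat promoter stretches of this length held at least as much. The Gabrb2 stretch held 8 and 43.2%, where the medians over all stretches were 6 and 52%. The motif TGANTCA, a consensus of the AP-1 family to which Jun belongs, was searched on both strands and matched neither stretch, and 6.36% of all stretches held it. TGACGTCA, the cyclic AMP response element, was in neither and in 1.70% of all, and TATAAA was in neither and in 13.1% of all. Stretches were at hand for 5 of the 6 genes. The start used by these ganglia was not measured.

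Gabra5, which encodes the alpha5 subunit known for tonic currents through receptors outside synapses, had the largest differences from naive of the 6 genes at both days. Its level was 6.98, 6.98, 6.76, 6.78 and 6.71 in naive replicates 1 to 5. At day 7 it was 7.71, 8.22, 7.31, 7.30, 7.27, 7.42 and 7.85 in replicates 1 to 7, and at day 14 it was 7.47, 7.26, 7.72, 7.63, 7.81, 7.48 and 7.03. Every operated array lay above every naive array, while the operated groups overlapped in part. Day 14 replicates 2 and 7 lay below every day 7 array, and day 7 replicates 2 and 7 above every day 14 array. The lowest operated value, day 14 replicate 7, was close above the highest naive ones.

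The naive mean of Gabra5 was 6.84 ± 0.13 (SD, n = 5). Its day 7 mean was 7.58 ± 0.36 (SD, n = 7), and its day 14 mean was 7.49 ± 0.27 (SD, n = 7). The day 7 mean stood above naive by 0.74 ± 0.15 (SE), a fold of 1.67, with a 95% interval of 0.43 to 1.06. With limma and adjustment over all 31042 probe sets it missed the threshold of 0.05 (unadjusted p = 8.6e-05, adjusted p = 0.178), and it ranked 15 by p. All 7 day 7 arrays above every naive array was met by 59 probe sets, or 0.19%. At day 14 the difference was 0.65 ± 0.15 (SE), a fold of 1.56, with an interval of 0.33 to 0.96 (limma unadjusted p = 3.8e-04, adjusted p = 0.073). All 7 day 14 arrays above every naive array was met by 332 probe sets, or 1.07%. Both comparisons share the same 5 naive arrays. All 14 operated arrays above every naive array was met by 18 probe sets, or 0.058%.

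Between day 14 and day 7 Gabra5 differed by -0.10 ± 0.14 (SE), with a 95% interval of -0.39 to 0.19 (limma adjusted p = 0.831). The test of any difference among the 3 groups gave an adjusted p of 0.108. The day 14 call depends on single arrays: without naive replicate 1 the limma adjusted p was 0.049, and without day 7 replicate 2, whose spread enters the shared error, it was 0.041. Animal codes in the labels open with AI, AJ or AK, letters with no stated meaning. Within AJ the difference was 0.62 at day 7 (5 arrays against 2) and 0.81 at day 14 (2 against 2), and within AK it was 1.0 at day 7 (2 against 3), while AI occurred at day 14 alone.

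**Figure D1:**
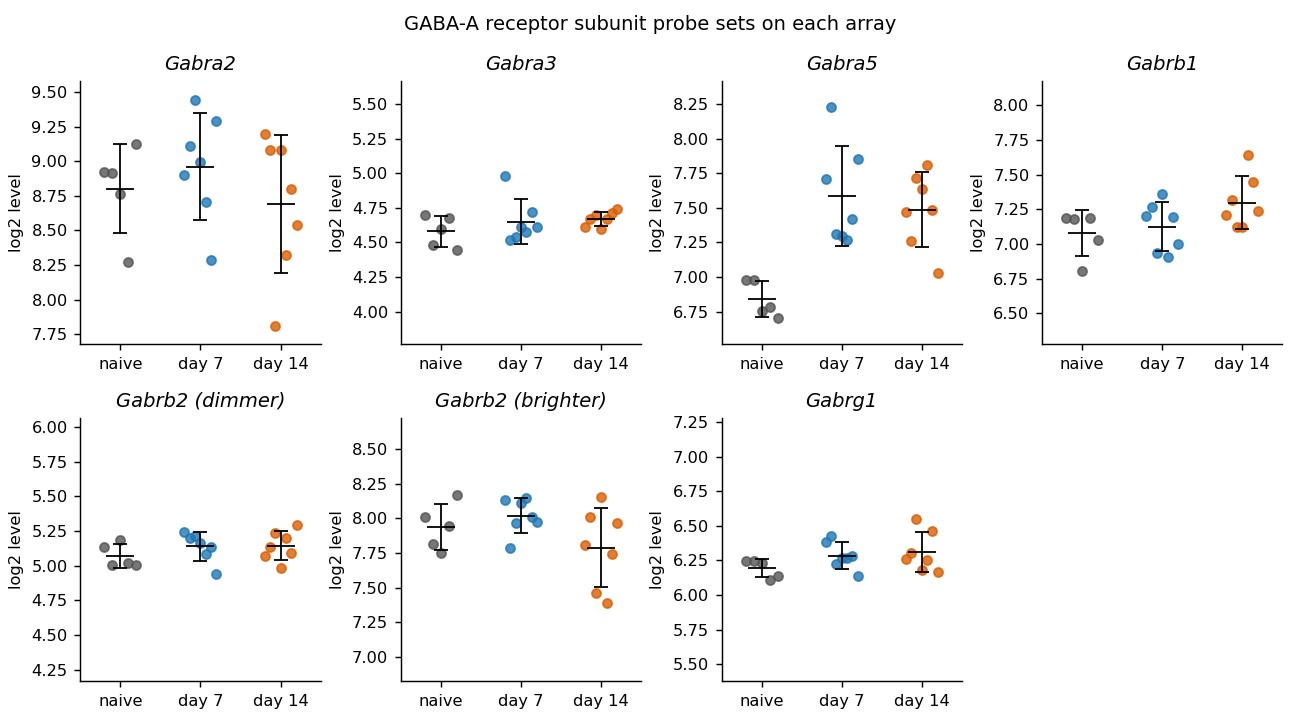
Log2 level (vertical axis, with the same span in each panel) of the 7 probe sets on each of the 5 naive, 7 day 7 and 7 day 14 arrays. Points are arrays and bars are the group mean with 1 SD. In the Gabra5 panel all 14 operated arrays lie above every naive array, and in the other panels the groups overlap.

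Gabra2 encodes the alpha2 subunit, a synaptic form that is a known mediator of the pain-relieving action of benzodiazepines in the spinal cord. Naive arrays were at 8.92, 8.92, 8.76, 8.27 and 9.13. Day 7 arrays ran from 8.29 to 9.44 with a median of 8.99, and day 14 arrays from 7.81 to 9.20 with a median of 8.80. The groups overlapped widely. Its mean stood at 0.16 ± 0.22 (SE) at day 7 and at -0.11 ± 0.22 at day 14 against naive, and at -0.27 ± 0.20 for day 14 against day 7, with intervals of -0.30 to 0.62, -0.57 to 0.35 and -0.69 to 0.15. Among the 7 probe sets this one differed most between rats of the same group, with a pooled SD of 0.42 against a median of 0.14 over all probe sets, which put it at the 98.1th percentile. The lowest value was day 14 replicate 3, and without that array the day 14 difference turned to 0.04. That array also had the lowest sensory neuron list mean, 11.49, and the highest mean of axon injury genes, 10.5, and their part in the value was not tested.

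Gabra3, the gene of the alpha3 subunit, had a dim probe set, at the 11.8th percentile of mean level. Naive arrays ran from 4.45 to 4.69, day 7 arrays from 4.51 to 4.98 with a median of 4.61, and day 14 arrays from 4.599 to 4.74 with a median of 4.67. Its differences were 0.07 ± 0.07 (SE), 0.09 ± 0.07 and 0.02 ± 0.06 for day 7 and day 14 against naive and for day 14 against day 7. At a level this low a change in the transcript can be compressed, so little can be read from so small a difference.

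Gabrb1 encodes the beta1 subunit. Naive arrays were at 7.19, 7.18, 6.81, 7.19 and 7.03, day 7 arrays ran from 6.91 to 7.36 with a median of 7.19, and day 14 arrays from 7.12 to 7.64 with a median of 7.23. The groups overlapped, although 5 of 7 day 14 arrays lay above the highest naive one. The differences from naive were 0.05 ± 0.10 (SE) at day 7 and 0.22 ± 0.10 at day 14, the latter with an interval of 0.01 to 0.43 (limma unadjusted p = 0.038, adjusted p = 0.227). Day 14 stood above day 7 by 0.17 ± 0.09. Without naive replicate 3, the lowest array, the day 7 difference turned to -0.02.

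Gabrb2 encodes the beta2 subunit, which in brain is part of the most abundant receptor type, and its probe sets differed in direction at day 14. The brighter one was at 8.01, 7.81, 7.75, 7.94 and 8.17 on naive arrays. It ran from 7.79 to 8.15 with a median of 8.01 at day 7, and from 7.39 to 8.16 with a median of 7.80 at day 14. Of the day 14 arrays, 3 lay below the lowest naive array and the rest were within the naive range. The differences were 0.08 ± 0.11 (SE) at day 7 and -0.15 ± 0.11 at day 14 against naive. Day 14 against day 7 stood at -0.23 ± 0.10, with an interval of -0.45 to -0.01 (limma unadjusted p = 0.039, adjusted p = 0.421). The dimmer probe set averaged 5.07, 5.14 and 5.14 in the 3 groups, with differences of 0.07 ± 0.06, 0.07 ± 0.06 and 0.003 ± 0.06 (SE). It lay at the 23.1th percentile of mean level and the brighter one at the 63.9th.

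Gabrg1 encodes the gamma1 subunit, found in receptors with an altered benzodiazepine response. Naive arrays were at 6.25, 6.25, 6.23, 6.11 and 6.13. Day 7 arrays ran from 6.14 to 6.42 with a median of 6.27, and day 14 arrays from 6.17 to 6.55 with a median of 6.26. In each operated group 5 of 7 arrays lay above the highest naive one, and the groups overlapped. The differences from naive were 0.09 ± 0.07 (SE) at day 7 and 0.12 ± 0.07 at day 14 (limma adjusted p = 0.740 and 0.330), and the operated groups differed by 0.03 ± 0.06.

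With limma, 0 of 7 member probe sets passed an adjusted p of 0.05 in any comparison. Over all probe sets 0 (0%) passed at day 7, 43 (0.139%) at day 14 and 0 (0%) between day 14 and day 7, and 8 (0.0258%) passed the test among the 3 groups. At an unadjusted p under 0.05 were 1 of 7 at day 7, Gabra5, where 8.7% of all probe sets were. At day 14 there were 2 of 7, Gabra5 and Gabrb1, against 19.7% of all, and between day 14 and day 7 there was 1, the brighter Gabrb2, against 11.3%. By the brightest probe set of each gene, 6 of 6 means stood above naive at day 7 with a median of 0.09, where 48.7% of all genes had a higher mean, and 4 of 6 at day 14 with a median of 0.10, where 50.7% did. The medians over all 14217 genes were -0.003 and 0.003. Between day 14 and day 7 3 of 6 stood higher, with a median of -0.04, where 51.9% of all genes did. In whole ganglia, fewer cells of a type and less RNA per cell cannot be told apart.

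**Figure D2:**
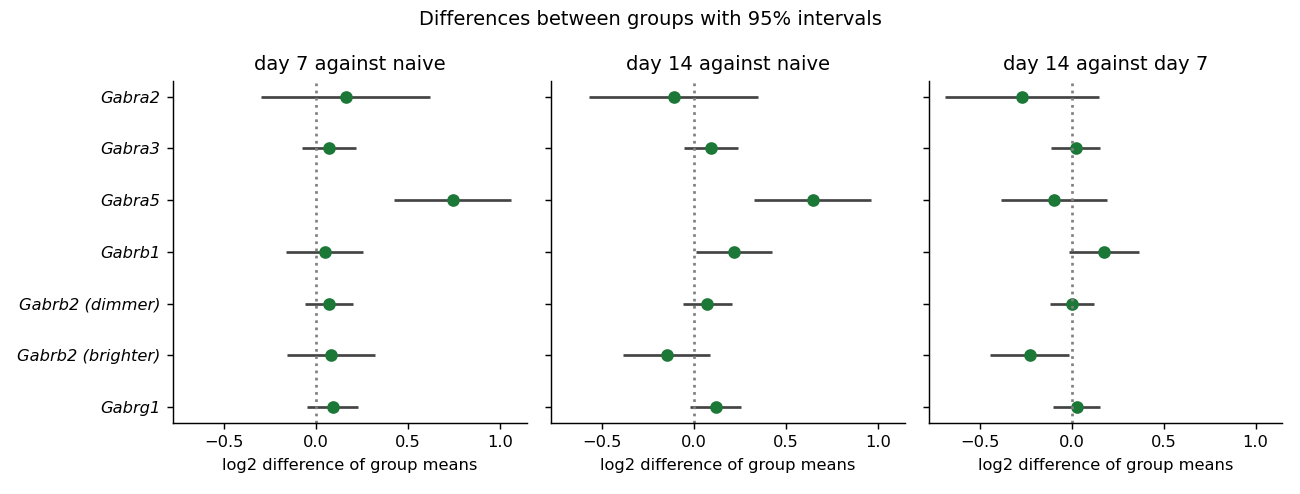
Log2 difference of group means (horizontal axis) with its 95% interval for each of the 7 probe sets, for day 7 against naive, day 14 against naive and day 14 against day 7. The Gabra5 intervals of 0.43 to 1.06 and 0.33 to 0.96 lie to the right of the others' points in both comparisons with naive.

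Gabra5 differed between operated rats along with genes of axon injury. That list of 11 genes was chosen with earlier results of these data known, and it holds Atf3, a transcription factor induced in injured neurons, the neuropeptides Npy, Gal and Vip, and growth-related genes such as Sprr1a and Gap43. The T11 skin nerves were not among those cut. The list mean ran from 7.65 to 7.91 on naive arrays, from 7.90 to 10.2 at day 7 and from 7.97 to 10.5 at day 14, so rats of the same group differed widely. Within the 7 day 7 arrays Gabra5 and the list mean correlated with Pearson's r = 0.97 (exact permutation p = 0.0032, adjusted over 12 relations p = 0.019). Spearman's rho there was 0.86 (exact permutation p = 0.024, adjusted p = 0.143), and r without the 2 arrays farthest from the median list mean was 0.94. Within the 7 day 14 arrays r was 0.95 (exact permutation p = 0.0024, adjusted p = 0.019) and rho 0.96 (exact permutation p = 0.0028, adjusted p = 0.033), with r = 0.98 without the 2 farthest arrays. No other member passed within either group, and the next in size was Gabrb2 at day 14 with r = -0.72 (exact permutation p = 0.063, adjusted p = 0.251).

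Over all 19 arrays, taken as deviations from their group means, Gabra5 and the axon injury mean correlated with r = 0.92 and rho = 0.93. The permutation p of r was 1e-05, the smallest that 100000 resamples can give, and after adjustment over 60 relations the p was 6.0e-04 for r and 0.0012 for rho. Without the 2 arrays farthest from the median r was 0.92, over the 14 operated arrays 0.94, and within the 9 arrays of animal code AJ 0.85. Of 14206 genes outside the list 3, Gabra5 included, had an r at least this high (0.0211%), and the median r was 0.02. For Gabrb2, through its brighter probe set, r was -0.62 (rho -0.55, permutation p = 0.012 and 0.026, adjusted p = 0.231 and 0.353), and -0.45 without the 2 farthest arrays. For Gabrg1 r was 0.51, falling to 0.16 without the 2 farthest arrays, and for Gabrb1, Gabra3 and Gabra2 it was 0.14, 0.03 and -0.28.

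The single genes of the list gave similar values for Gabra5. Pearson's r of group deviations was 0.93 with Csrp3, 0.91 with Atf3, 0.90 with Gal, 0.88 with Vip and 0.86 with Sprr1a. It was 0.80 with Jun, 0.79 with Npy, 0.79 with Gadd45a, 0.76 with Cacna2d1 and 0.62 with Gap43. All 10 passed after adjustment over the 11 genes, with adjusted permutation p between 2.7e-05 and 0.015, and their rho ran from 0.52 to 0.91 with adjusted p up to 0.043. Sox11 did not (r = 0.50, adjusted p = 0.092), and its r was -0.07 without the 2 farthest arrays. Csrp3 is also expressed in muscle. The skeletal muscle list mean itself had an r of 0.20 with Gabra5 (adjusted permutation p = 0.885), but 0.68 within the 9 AJ arrays. The part of muscle transcripts in the Csrp3 value was not tested. Within the 9 AJ arrays the values ran lower for several genes, at 0.46 for Npy, 0.38 for Jun and 0.26 for Gap43, against 0.95 for Csrp3 and 0.90 for Atf3.

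**Figure D3:**
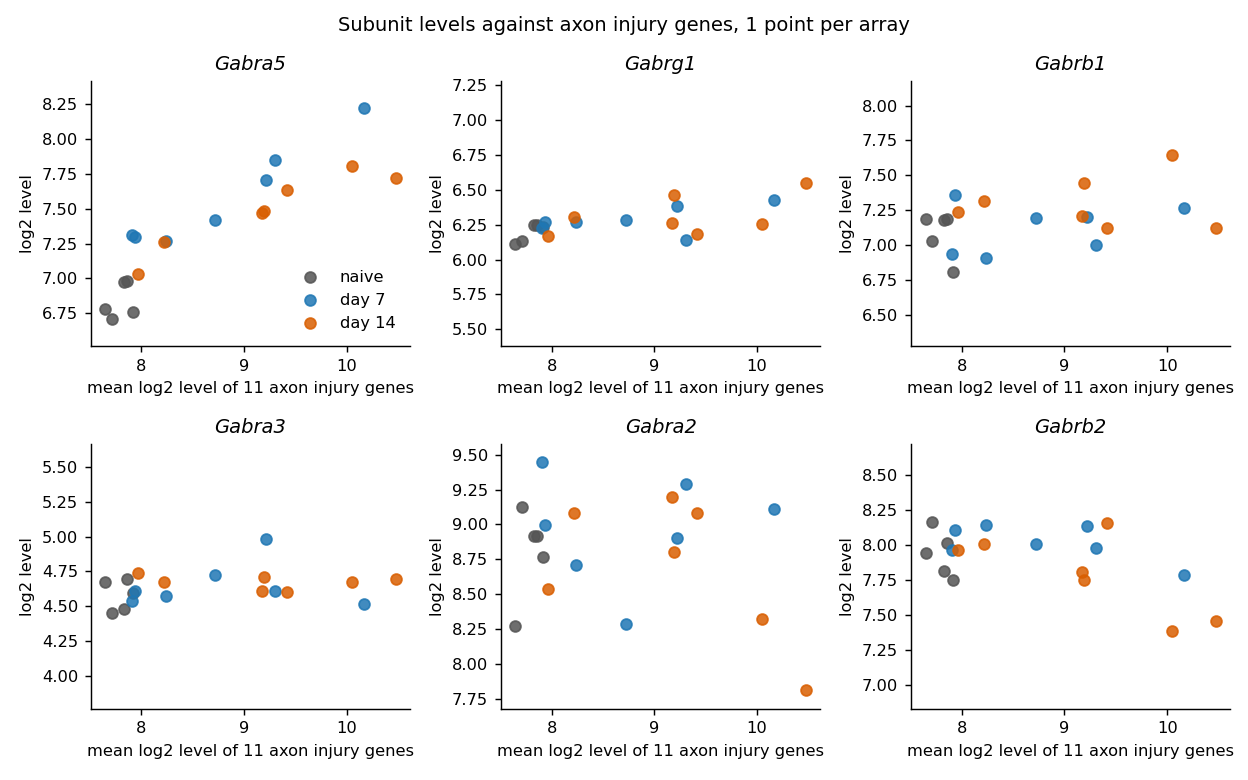
Log2 level of each subunit (vertical axis, with the same span in each panel) against the mean log2 level of the 11 axon injury genes (horizontal axis), with 1 point per array coloured by group and Gabrb2 shown by its brighter probe set. Gabra5 increases along the axis with r = 0.97 within day 7 and 0.95 within day 14, whereas the other subunits do not pass the test within either group.

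The operated rats with the lowest injury means are described next, and on naive arrays the list mean reached 7.91. Day 7 replicates 3, 4 and 5 had list means of 7.90, 7.94 and 8.24 and Gabra5 levels of 7.31, 7.30 and 7.27. Day 14 replicates 7 and 2 had list means of 7.97 and 8.21 and Gabra5 levels of 7.03 and 7.26. Of these 5 rats only day 7 replicate 3 had a list mean within the naive range. As on every operated array, the 5 Gabra5 levels were above the highest naive value, 6.98. They were below those of the other operated arrays. With the axon injury mean as a covariate, a choice made after seeing the data, the Gabra5 difference from naive was 0.40 ± 0.08 (SE) for day 7 and 0.15 ± 0.09 for day 14 (limma adjusted p = 0.584 and 0.471). The list mean itself averaged 7.79 in the naive, 8.78 in the day 7 and 9.21 in the day 14 group. This fit therefore cannot tell surgery and the injury genes apart. How far injured fibres, sprouting fibres or other cells contribute to the Gabra5 levels was not tested.

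Members were also set against the summed markers of other cells and the 3' minus 5' signal of 2 control genes, 60 relations in all, of which Gabra5 with axon injury was the only one past the threshold. Gabrg1 had an r of -0.68 with the sensory neuron list mean (rho -0.52, permutation p = 0.0031 and 0.023, adjusted p = 0.092 and 0.353), and -0.41 without the 2 farthest arrays. Gabra2 had an r of 0.55 with it (rho 0.51, permutation p = 0.028 and 0.029, adjusted p = 0.283 and 0.353), and 0.31 without the 2 farthest. Gabrb2 had an r of 0.56 with the satellite glia list mean (rho 0.42, permutation p = 0.033 and 0.117, adjusted p = 0.286 and 0.572), and with the sensory neuron list mean its r was 0.41 and rho 0.53 (permutation p = 0.101 and 0.014, adjusted p = 0.444 and 0.353). Gabra5 had an r of -0.51 with the spinal cord neuron and central glia list mean (rho -0.47, permutation p = 0.017 and 0.039, adjusted p = 0.250 and 0.390). Gabra3 had an r of -0.51 with the fibroblast and matrix list mean (rho -0.41, permutation p = 0.024 and 0.089, adjusted p = 0.283 and 0.572). The sensory neuron list mean was 11.63 ± 0.02 (SD, n = 5) in the naive group. It was 11.63 ± 0.09 (SD, n = 7) in the day 7 group and 11.65 ± 0.07 (SD, n = 7) in the day 14 group. The 7 myelinating Schwann cell genes had a median difference of -0.33 at day 7 and 0.04 at day 14, and the 13 skeletal muscle genes -0.02 and -0.45. No member correlated past the threshold with either list mean. A covariate fit was run for the skeletal muscle list mean but not for the Schwann cell one. The 3' minus 5' signal ran from 3.26 to 3.69 on naive arrays, from 3.16 to 3.38 at day 7 and from 3.18 to 3.36 at day 14. With it as a covariate Gabra5 stood at 0.69 at day 7 and 0.59 at day 14.

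**Figure D4:**
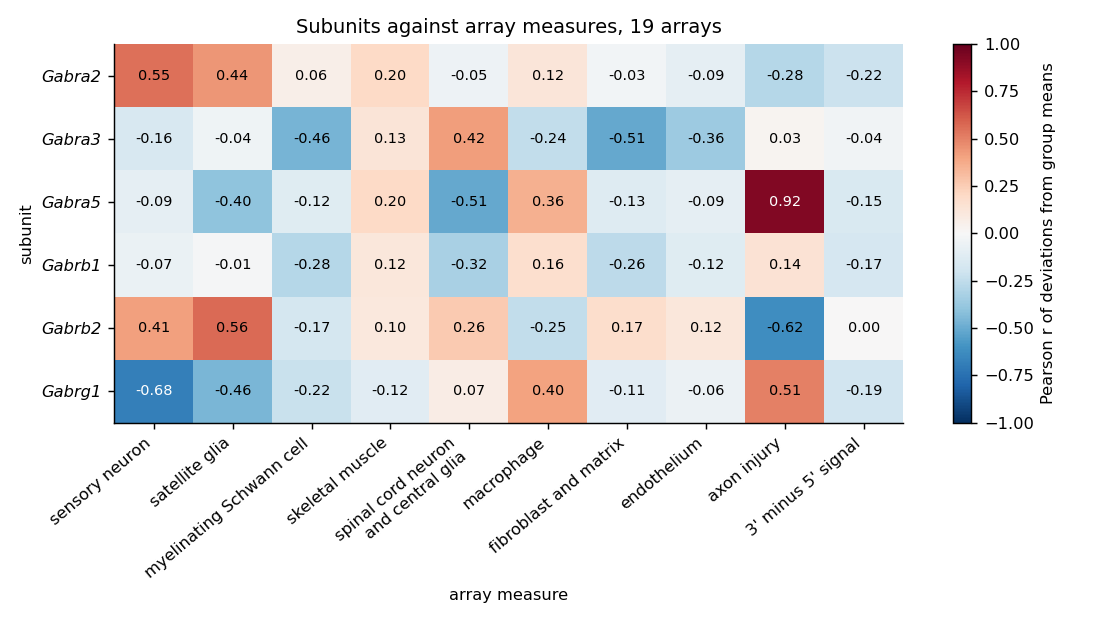
Pearson's r, over 19 arrays as deviations from group means, between each of the 6 subunits (rows, 1 probe set per gene) and 9 marker list means and the 3' minus 5' signal (columns). Red is positive and blue negative, and Gabra5 with axon injury at 0.92 is the only one of the 60 values past the threshold.

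Levels of the subunits were also compared with each other. Of 15 pairs of members, 0 correlated past the threshold over the 19 group deviations, and a permutation p under 0.05 was met by Gabra5 with Gabrb2 and, by rank alone, by Gabra2 with Gabra3. For Gabra5 with Gabrb2 r was -0.53 and rho -0.51 (permutation p = 0.017 and 0.032, adjusted p = 0.260 and 0.244), with r = -0.63 without the 2 farthest arrays and -0.08 within the 9 AJ arrays. Without day 14 replicate 4 this pair alone passed, with an adjusted p of 0.020. For Gabra2 with Gabra3 r was -0.40 and rho -0.55 (permutation p = 0.077 and 0.0090, adjusted p = 0.375 and 0.135), with r = -0.56 without the 2 farthest arrays and -0.32 within the 9 AJ arrays. Gabra2 with Gabrb2 stood at r = 0.44 and rho = 0.29, at adjusted p of 0.375 and 0.581. Several subunit genes lie side by side in the genome. In the RefSeq annotation of GRCr8, Gabra5 and Gabrg3 are neighbours on chromosome 1, and Gabrg3 stood at -0.001 and 0.004 against naive at day 7 and day 14. Gabrb1, Gabra4, Gabra2 and Gabrg1 lie in this order on chromosome 14, with day 14 differences of 0.22, 0.29, -0.11 and 0.12.

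The genes most like each member over the 19 arrays were sought among 9795 or 9796 genes above the median level, by Pearson's r of the levels, as a description. For Gabra5 they were Sema6a, a transmembrane semaphorin, with r = 0.93 (0.90 as deviations from group means), and Gal, with r = 0.87. For Gabra2 they were the kinase genes Gsk3b (0.91) and Prkaa2 (0.90), and for Gabrb2 Sorcs3 (0.87), a sorting receptor, and Dnajc10 (0.84). Gabrg1 was most like Tbxas1 (0.82), thromboxane synthase, and Lcp2 (0.80), an adaptor of blood cells. Gabra3 was most like Capn8 (0.83) and Pde6g (0.81), and Gabrb1 like Zic2 (0.76) and Pbx4 (0.75). Without the 2 farthest arrays r ran from 0.57 to 0.93 over these 12 genes, lowest for Pbx4.

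Among the other GABA-A and rho subunit genes, 9 of 10 had a higher mean at day 14 than in naive rats, with a median of 0.13, where 50.7% of all genes did. With limma 0 of their 17 probe sets passed, and 6 had an unadjusted p under 0.05, as did 19.7% of all probe sets. At day 7 the count of higher means was 7 of 10, with a median of 0.03, where 48.7% of all genes did. Several of these genes were dim, at naive means of 4.90 for Gabra4, 4.28 for Gabrp, 4.88 for Gabrr3 and 5.08 for Gabrr1. The brightest, Gabrd, was at 7.07. Among members, the dim Gabra3 and dimmer Gabrb2 probe sets stood at 0.09 and 0.07 at day 14. After quantile normalization again they stood at 0.03 and 0.02. Little can be read from small differences at such levels. Gabra4, the gene of the alpha4 subunit of extrasynaptic receptors, stood at 0.12 ± 0.08 (SE) at day 7 and 0.29 ± 0.08 at day 14 (limma adjusted p = 0.095), with 5 of 7 day 14 arrays above every naive one. Gabrd, whose delta subunit joins alpha4 in such receptors, stood at 0.23 ± 0.08 at day 14, with other probe sets at 0.11 and 0.29. Gabre stood at 0.22 and 0.07 by its probe sets, Gabrr2 at 0.18 and 0.06 and Gabrr1 at 0.15 and 0.02.

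Of the genes that make, carry and break down GABA, 5 of 9 stood above naive at day 14, with a median of 0.05. With limma 0 of 14 probe sets passed, and 3 had an unadjusted p under 0.05, against 19.7% of all probe sets. Aldh5a1, the last enzyme of GABA breakdown, stood at -0.18 ± 0.06 (SE) at day 14 (limma unadjusted p = 0.0074, adjusted p = 0.137), but its other probe sets stood at -0.24 and 0.19. Gad2, a GABA-synthesising enzyme, stood at 0.14, the transporter gene Slc6a11 at 0.13, Maob, a monoamine oxidase, at -0.12 and the vesicular transporter gene Slc32a1 at 0.09.

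Of genes for receptor assembly, trafficking and clustering, 6 of 18 were above naive at day 7 and 9 of 18 at day 14, with medians of -0.03 and 0.001. With limma 0 of 31 probe sets passed in either comparison, and 2 at day 7 and 4 at day 14 had an unadjusted p under 0.05, against 8.7% and 19.7% of all probe sets. Plcl2, one of a pair of phospholipase C-like proteins that bind receptor and phosphatase, stood at -0.25 ± 0.07 (SE) at day 7 and -0.18 ± 0.07 at day 14, and its relative Plcl1 at -0.18 and -0.28. Nlgn2, an adhesion protein of inhibitory synapses, stood at 0.21 ± 0.07 at day 14 (limma adjusted p = 0.133). All 7 of its day 14 arrays lay above every naive one, as did those of 1.07% of all probe sets. This Nlgn2 probe set was dim, at a naive mean of 5.21, and the gene's dimmer one stood at 0.00. Lhfpl4, which links receptor and neuroligin, stood at 0.18 ± 0.06 and by its dimmer probe set at 0.08, and Hap1, a trafficking adaptor, at -0.16. Gphn, the scaffold gephyrin, stood at -0.04 and -0.02. Nsf stood at 0.01 at day 7 and 0.05 at day 14 by its brightest probe set. A dimmer one stood at 0.45 ± 0.13 (SE) at day 7 (limma unadjusted p = 0.0026, adjusted p = 0.416) and 0.34 at day 14, and another at 0.29 and 0.16.

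Chloride transport sets the direction of the current through these receptors. At day 14 1 of 10 such genes stood above naive, with a median of -0.06, where 50.7% of all genes did, and at day 7 4 of 10, with a median of -0.04, where 48.7% did. With limma 0 of 19 probe sets passed. In each comparison with naive 3 had an unadjusted p under 0.05, where 8.7% of all probe sets did at day 7 and 19.7% at day 14. Slc12a2, which brings chloride in, stood at -0.07 ± 0.06 (SE) at day 7 and -0.08 ± 0.06 at day 14, and Slc12a5, which extrudes it in central neurons, at -0.12 ± 0.09 and -0.20 ± 0.09. The channel gene Clcn2 stood at -0.30 ± 0.11 at day 7 and -0.18 at day 14, and the extruder gene Slc12a7 at -0.27 ± 0.09 and -0.02, with a dimmer probe set at -0.00036 and 0.11. Ano1, a calcium-activated chloride channel, stood at 0.14 at day 7 and -0.16 at day 14.

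GABA-B receptor genes, which encode the slower, G protein-coupled receptor, lay between -0.03 and 0.08 for the 4 genes in both comparisons with naive. The benzodiazepine-site ligand gene Dbi stood at 0.03 and 0.09, and Tspo, a mitochondrial protein linked to neurosteroid synthesis and also high in macrophages, at -0.03 and 0.27. Of the 4 glycine receptor genes, which form the other inhibitory chloride channel, Glra1 was highest at day 14 with 0.15. With limma 0 of the 26 probe sets of these 3 lists passed at either day. At an unadjusted p under 0.05 there were 0 at day 7 and 2 at day 14, against 8.7% and 19.7% of all probe sets.

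**Figure D5:**
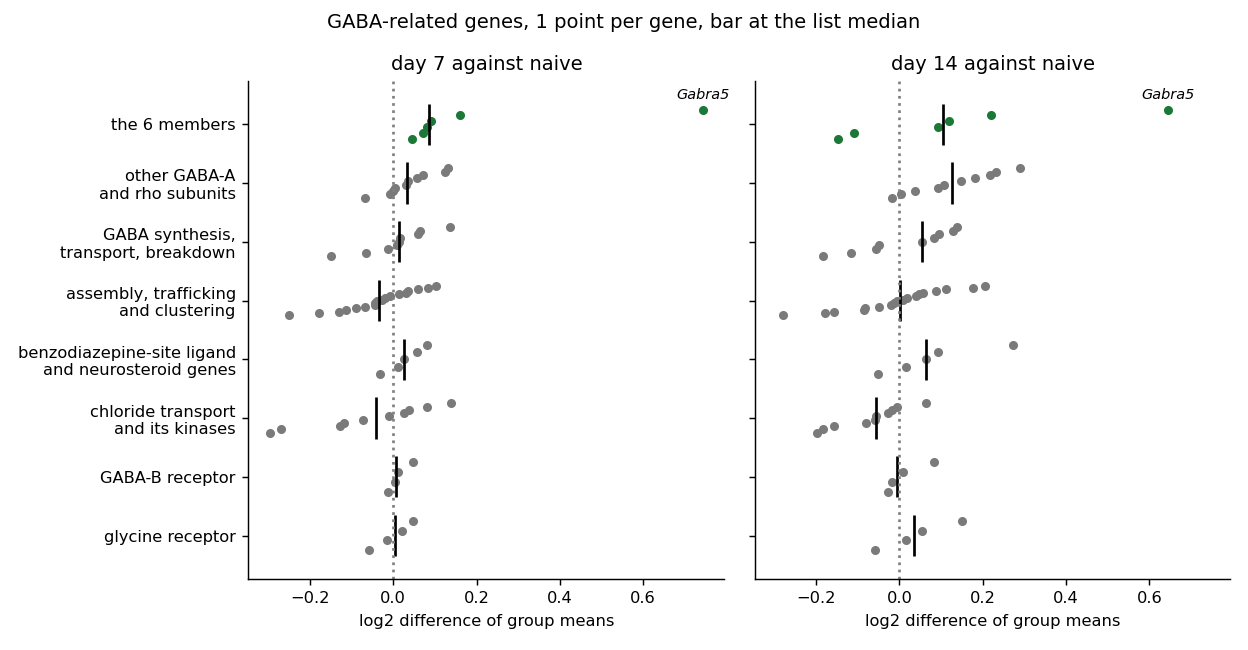
Log2 difference from naive (horizontal axis) at day 7 and day 14 for the 6 members (green) and for 7 lists of related genes (grey), with 1 point per gene by its brightest probe set and a black bar at each list's median. Gabra5, at 0.74 and 0.65, lies to the right of every other gene shown.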

How the data were processed

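Per the labels' protocols, RNA from each single ganglion was amplified linearly in 2 rounds and hybridised to an Affymetrix Rat Genome 230 2.0 array, and such amplification can favour 3' signal. The submitters removed 1 further naive array on quality grounds. Each deposited value is the log2 level of 1 probe set. RMA and limma were the authors' tools, per the submitters' processing notes, with versions not given in the sources used here. Since RMA gives all arrays the same distribution of probe intensities before it summarises them by probe set, a common shift of most genes could not be seen. The summarised values can still differ slightly, and their array medians ran from 6.702 to 6.745.

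Of the 31099 deposited probe sets, 57 control probe sets were left out. Gene symbols came from the platform annotation, with 20826 probe sets of 1 symbol, 436 of several and 9780 of none, and those with several were not named. Where a gene had several probe sets, the one with the highest mean over all arrays stood for it in lists. Differences were fitted on all 19 arrays with limma 3.58.1 (lmFit and eBayes) in R 4.3.3, with 4.20 prior and 16 residual degrees of freedom, and p-values were adjusted by Benjamini-Hochberg over 31042 probe sets at a threshold of 0.05. The fit was tested on simulated data. Correlations used deviations from group means, with 100000 two-sided permutations within groups, or exact permutations within 1 group of 7, in Python 3.11.15 (scipy 1.17.1, pandas 2.3.3, numpy 2.4.6), with figures by matplotlib 3.10.9. No pair of arrays was identical (pairwise r 0.987 to 0.997).

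The members, gene lists and tests were chosen with earlier results of these data known. Genes were named by rule: all members, up to 5 genes per related list and comparison by the threshold and then by size, and the 2 genes most like each member. Slc12a2, Gphn, Gabrg3, Dbi and other genes at small differences were named for their role after their values were seen. Nsf was named for its dimmer probe sets, also after the values were seen. Alternatives were a filter on dim probe sets, renormalization, centring, moderation, array weights, the samples fitted, averaged probe sets, blocks, covariates, another threshold and leaving out each array.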

Additional observations from a re-analysis of the deposited data

Results flagged for a closer look

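None of the 7 member probe sets held an array far from the others of its group. Of 51 groups of values examined with Dixon's test, 5 had an extreme array separated from the next by a large part of the range, where chance gives about 1 in 20, or 2.55, and all 5 were marker list means. The sensory neuron list mean was highest on day 7 replicate 7 (11.81, next 11.66) and lowest on day 14 replicate 3 (11.49, next 11.66). The skeletal muscle list mean was highest on naive replicate 1 (9.73, next 6.68), day 7 replicate 7 (9.44, next 7.28) and day 14 replicate 2 (8.15, next 6.50).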

How the results depend on the processing

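Of 21 member differences 14 kept their direction under every alternative run and 7 turned at least once, none of the 7 past the threshold. Gabra5 stood between 0.40 and 0.80 at day 7 (limma adjusted p 0.106 to 0.907) and between 0.15 and 0.93 at day 14 (adjusted p 0.041 to 0.471) over 33 alternatives, lowest with the axon injury covariate, which was added after seeing the data. It was the 1 member past the threshold at day 14 with the sensory neuron list mean as a covariate (0.65, adjusted p = 0.047) and at a threshold of 0.10, and the count ran from 0 to 1 with single arrays left out. Passing at 0.10 is less rare: at least 598 of 31042 probe sets did at day 14, against 43 at 0.05. This follows from Gabra4, which ranked 598 by p (limma adjusted p = 0.095). For the covariate and the arrays left out, the share of all probe sets past the threshold is not given here. The count of correlated pairs also ran from 0 to 1 with single arrays left out. Day 14 against day 7 turned for Gabra5 to 0.14 with the animal code prefix as a block. It turned for Gabra3 to -0.023 with that block and -0.015 with quantile normalization again. For the dimmer Gabrb2 probe set it turned to -0.037 with quantile normalization again, -0.027 with array weights, -0.047 with the prefix block, -0.0052 with the skeletal muscle covariate and -0.029 without the 3 arrays high in muscle transcripts, the last also added later. For Gabrg1 it turned to -0.012 with array weights and -0.0039 with the axon injury covariate. That covariate turned the day 14 differences from naive of Gabra2 to 0.11 and of the brighter Gabrb2 to 0.094. With each array left out in turn, day 14 against day 7 ran from -0.15 to 0.010 for Gabra5, -0.0010 to 0.077 for Gabra3, -0.030 to 0.030 for the dimmer Gabrb2 and -0.012 to 0.052 for Gabrg1, day 7 against naive from -0.022 to 0.082 for Gabrb1, and day 14 against naive from -0.24 to 0.036 for Gabra2. The cause was not tested. The signal over background limits what the dim Gabra3 and Gabrb2 probe sets can show.

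The groups share replicate numbers, and 3 of 17 pairs of same-numbered arrays correlated above 0.1 (range -0.26 to 0.33). Arrays of unlike numbers were not compared in this way, so these values cannot decide whether the numbers pair the rats. With the replicate number as a block, 0 member probe sets passed in any comparison, and Gabra5 stood at 0.72 at day 7 (limma adjusted p = 0.521) and 0.74 at day 14 (adjusted p = 0.206). Over the 7 GABA-related, chloride and glycine receptor lists 0 probe sets passed at day 14, against 1 with the sensory neuron covariate, 1 with the muscle covariate, 1 at a threshold of 0.10 and 2 without naive replicate 1. With the axon injury list added the counts were 3, 1, 7 and 3, and 1 without naive replicate 2. The lists held 17 probe sets for other subunits, 14 for GABA synthesis and breakdown, 31 for assembly and trafficking and 19 for chloride transport. The GABA-B, benzodiazepine-site and glycine receptor lists held 26 together, and the axon injury list 14. At 0.10 at least 598 of all probe sets passed, so 1 in these lists does not set them apart. In the other settings the share of all probe sets is not given here.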

Other observations

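The GABA-B receptor gene Gabbr1 had 5 probe sets that went different ways at day 14, and this was noticed after the values were seen. The brightest stood at -0.02 against naive. Another stood at 0.01 at day 7 and at -0.38 at day 14, with 4 of 7 day 14 arrays below every naive array and a day 14 limma adjusted p of 0.106. The remaining ones stood at -0.04, 0.13 and 0.11 at day 14. Gabbr1 has several transcript forms, and which of them each probe set reads was not examined.

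Sema6a, the gene most like Gabra5, had levels of 7.85 to 8.32 on naive arrays, 8.40 to 9.81 at day 7 and 8.29 to 9.68 at day 14. Its 7 day 7 arrays lay above every naive array, as did those of 59 probe sets (0.19%), and at day 14 it overlapped the naive range. Sema6a was picked for following Gabra5 over these same arrays, so its separation is not a separate result.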
